A study of Mus musculus with 18 samples.

Results

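The receptor chains described here are 10 genes, Il7r, Il10ra, Il10rb, Il6ra, Il6st, Il21r, Ifnar1, Ifnar2, Ifngr1 and Ifngr2, taken by name as chains of receptors for interleukins and interferons, and all 10 were found among the 48794 rows of the count table. RNA was sequenced from bone marrow-derived macrophages, primary phagocytes grown from the marrow of male C57BL/6 mice over 7 days in 50 ng/ml rhM-CSF, a recombinant macrophage growth factor. The cells then spent 24 h in 10 ng/ml rhM-CSF, which every group received, either alone (control), with rmIL-4 and rmIL-13 at 10 ng/ml each, or with rmIL-4, rmIL-13 and rmTNFα at 10 ng/ml each, called IL-4, IL-13 and TNFa from here on. The age of the mice is not given in the sources used here. Each of the 3 groups had 6 libraries. No group received TNFa alone, so the effect of TNFa was measured only on top of IL-4 and IL-13. Nothing in the labels ties the replicates to different mice or dishes, so p-values measure only the spread between libraries, which may be technical.

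Cytokine receptors of this kind have no enzyme activity of their own. A ligand brings together chains whose intracellular parts carry Janus kinases (JAKs), and these kinases phosphorylate STAT transcription factors. One chain usually gives specificity for the ligand and the other is shared or serves mainly for signalling. Il7r encodes the IL-7 receptor alpha chain, which pairs with the common gamma chain (Il2rg) for IL-7 and with Crlf2 for TSLP, and Il21r encodes the chain that pairs with the common gamma chain for IL-21. Il10ra binds IL-10 and pairs with Il10rb, a chain also used by the receptors for IL-22 and interferon lambda. Il6ra binds IL-6 and pairs with gp130, encoded by Il6st, which also serves IL-11, LIF, oncostatin M and IL-27. Type I interferons bind Ifnar1 and Ifnar2, and interferon gamma binds Ifngr1 and recruits Ifngr2. In macrophages, interferon gamma primes for antimicrobial activity and antigen presentation, and IL-10 restrains inflammatory gene expression.

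Libraries held between 15744544 and 19309743 counts in the control group, between 14793404 and 20056125 with IL-4 and IL-13, and between 15645117 and 17808553 with TNFa added. All 8 markers on a macrophage list were at 1 CPM (counts scaled to the size of the library) or more in the control group. Their summed level was 13898 to 24848 CPM in the controls, 7958 to 9690 CPM with IL-4 and IL-13, and 8215 to 9017 CPM with TNFa added. Lyz2, the highest of them in the controls, had means of 12005, 2848 and 3190 CPM in the 3 groups. After IL-4 and IL-13, 7 of the 8 were called lower and 1, Cd68, higher (mean 760 to 1080 CPM), where 29.7% of all genes were called lower and 29.3% higher. With TNFa added, 5 of the 8 were called lower and 1 higher, where 29.3% of all genes were called lower and 30.3% higher. The flat sum and Lyz2 do not show these falls. Fcgr1 then fell from a mean of 21.8 to 0.999 CPM, which left 7 of the 8 at 1 CPM or more. Markers of T cells and of NK and innate lymphoid cells, which are known to carry IL-7 and IL-21 receptors, summed to at most 2.59 and 1.35 CPM in any library, and none reached 1 CPM as a group mean. B cell markers summed to at most 4.52 CPM, erythroid markers to at most 0.769 CPM and mast cell and basophil markers to at most 3.04 CPM. Dendritic cell markers summed to 1.36 to 4.19 CPM in the controls, 2.77 to 6.74 CPM with IL-4 and IL-13, and 35.0 to 37.9 CPM with TNFa added, of which Zbtb46 made up 33.9 CPM. Neutrophil markers summed to 14.4 to 83.6, 19.2 to 55.6 and 97.5 to 123 CPM in the 3 groups, mostly as the growth factor receptor Csf3r. Stromal markers, led by Col1a1, varied within each group, from 19.9 to 634 CPM in the controls, 55.4 to 561 CPM with IL-4 and IL-13, and 56.7 to 362 CPM with TNFa added. The part of these other cell types in the receptor values was not tested, and in bulk RNA fewer cells of a type and less RNA per cell cannot be told apart.

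Control replicate 1 stood apart from the rest of its group. It differed from the mean of the other controls by over 2-fold at 1836 genes, against at most 393 in any other library. Its macrophage marker sum was the lowest of the controls. So were its neutrophil, stromal, dendritic cell, B cell, NK and innate lymphoid cell, and erythroid sums, but not those of T cells or mast cells and basophils. It held the lowest control value of 9 of the 10 receptor chains, the exception being Il7r. Fold changes and ratio differences without this library are therefore given where it changes a call or a sign. Counts of chains whose libraries do not overlap, and the order of levels per length, include it.

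All 10 chains passed the filter on low counts, with 1211 to 13216 counts per library. IL-4 and IL-13 lowered 5 chains and raised 2, TNFa added to them raised 6 and lowered 2, and every chain differed between the control and the triple treatment, 6 higher and 4 lower. The calls are edgeR quasi-likelihood tests over 13177 genes at a Benjamini-Hochberg adjusted p under 0.05. After IL-4 and IL-13, 7 of the 10 chains were called, where 59.0% of all genes were called, 29.3% higher and 29.7% lower. With TNFa added, 8 of 10 were called against 59.6% of all genes, 30.3% higher and 29.3% lower. Between the triple treatment and the control, all 10 were called against 73.8% of all genes, 36.4% higher and 37.3% lower. Most genes were thus called in every comparison, and the share of chains called does not set them apart. Without the 3 libraries numbered 1, the calls were 2 higher and 7 lower, 7 higher and 3 lower, and 6 higher and 4 lower in the same order of comparisons. In that fit 67.3% (35.1% higher, 32.2% lower), 64.9% (33.3% and 31.6%) and 77.6% (39.0% and 38.6%) of all genes were called. The comparisons share libraries, so their values are given side by side and not as independent evidence.

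Calls and separation between groups were not the same thing. The libraries of both groups did not overlap for 5 of 10 chains after IL-4 and IL-13, 2 higher and 3 lower, against 26.7% of all genes (12.5% higher, 14.2% lower). With TNFa added this held for 9 of 10, 7 higher and 2 lower, against 44.9% (23.3% higher, 21.6% lower). For the triple treatment against the control it held for 9 of 10, 6 higher and 3 lower, against 51.2% (26.1% higher, 25.1% lower). Control replicate 1 was the only control not above every IL-4 and IL-13 library for Il10ra, Il6ra and Ifngr1. For Il10ra it was also the only control not above every library of the triple treatment. The median log2 fold change of the 10 chains was -0.40, 0.66 and 0.40 in the 3 comparisons in that order, beside -0.002, 0.003 and -0.02 over all genes. Fold changes of 2 or more with a call were seen at 12.4%, 17.5% and 26.6% of all genes in the same order.

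**Figure D1:**
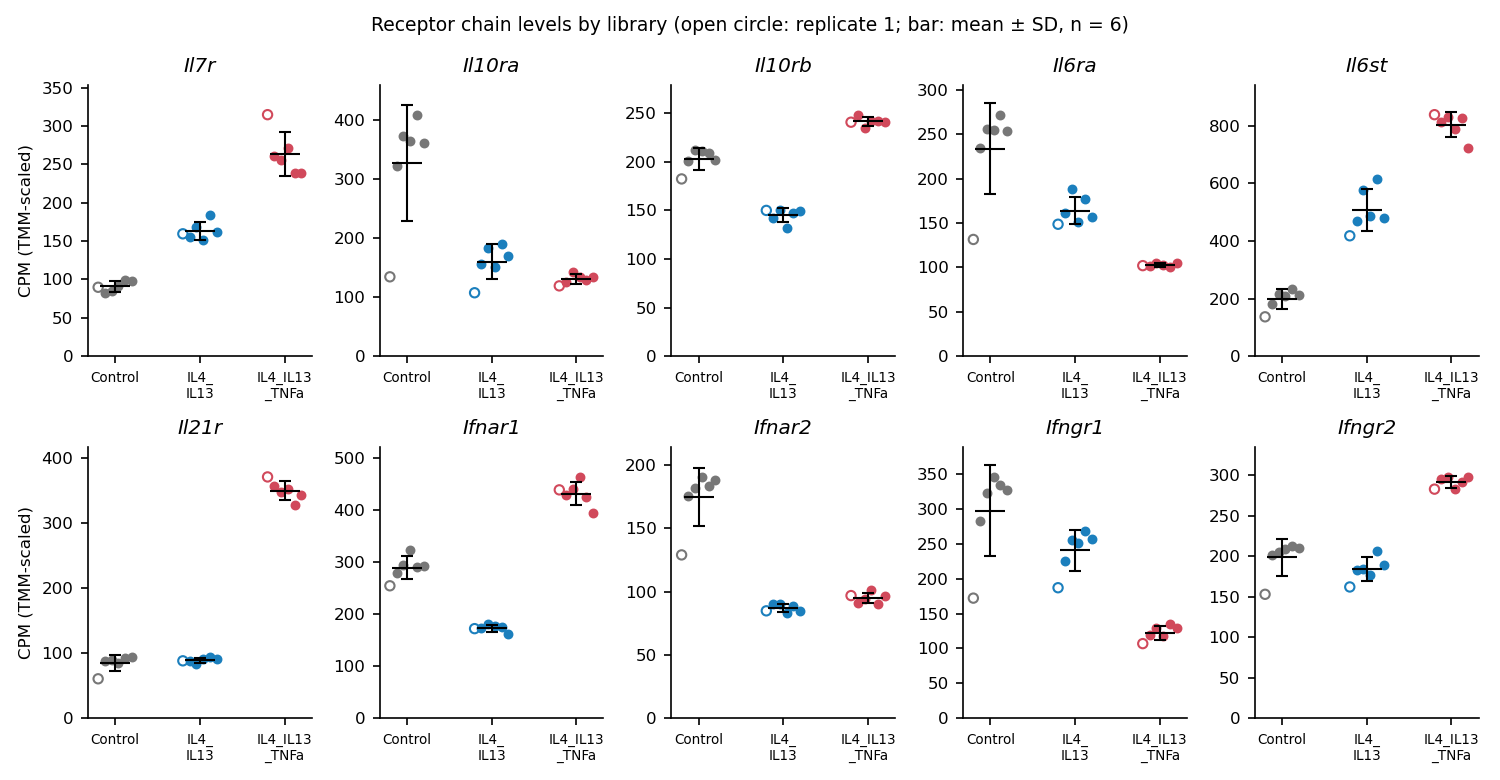
Level of each receptor chain in CPM, in 1 panel per gene, with 1 point per library (6 in each of 3 groups, open for replicate 1) and the group mean ± SD as a bar. Il21r is at 328 to 371 CPM with TNFa and at most 95.1 CPM in every other library, and Control replicate 1 is the lowest control point for 9 of the 10 genes.

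Il7r and Il21r, the chains that use the common gamma chain, both ended higher under the triple treatment, and Il7r was already called higher after IL-4 and IL-13. Il7r lies on the minus strand of chromosome 15 (chr15:9505788-9530176, build GRCm38). Its level ran from 82.1 to 99.3 CPM in the controls (median 90.7), from 151 to 185 with IL-4 and IL-13 (median 161), and from 239 to 315 with TNFa added (median 259). The 3 groups formed separate bands with no shared value. The mean was 91.0 ± 6.93, 163.5 ± 11.8 and 263.8 ± 28.2 CPM (SD, n = 6 each). IL-4 and IL-13 gave a log2 fold change of 0.84 ± 0.07 (SE, adjusted p = 8.49e-09), a 1.80-fold rise, and TNFa added a further 0.69 ± 0.07 (adjusted p = 7.38e-08).

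Il21r, on the plus strand of chromosome 7 (chr7:125603429-125633570), showed the largest rise of the 10 chains with TNFa. Control libraries held 60.8 to 95.1 CPM (median 88.8), IL-4 and IL-13 libraries 83.6 to 94.7 CPM (median 89.6), and TNFa libraries 328 to 371 CPM (median 350.5). The first 2 groups overlapped, and all 6 TNFa libraries lay above both. The mean rose from 89.5 ± 3.69 to 350.4 ± 14.3 CPM (SD, n = 6), a 3.92-fold change (log2 1.97 ± 0.08, SE, adjusted p = 2.13e-13). IL-4 and IL-13 alone gave a log2 difference of 0.07 ± 0.08 (adjusted p = 0.46), which was -0.01 without Control replicate 1.

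The shared partner of both chains is Il2rg, which was called higher at each step. Its mean was 29.1 ± 1.89 CPM in the controls, 40.2 ± 2.56 with IL-4 and IL-13 and 179 ± 7.21 with TNFa added (SD, n = 6), with log2 rises of 0.46 and then 2.16 (adjusted p = 4.4e-07 and 2.0e-16). Crlf2, the TSLP receptor chain that pairs with Il7r, was also called higher at each step, from 83.6 ± 9.87 to 117 ± 14.8 and 167 ± 15.1 CPM.

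The IL-10 receptor chains parted. Il10ra, the ligand-binding chain (chr9:45253837-45269149, minus strand), fell with IL-4 and IL-13. Control libraries held 134 CPM in replicate 1 and 321 to 409 CPM in the others (median of all 6, 363), IL-4 and IL-13 libraries 107 to 190 CPM (median 163), and TNFa libraries 119 to 143 CPM (median 131). Only Control replicate 1 reached into the range of the treated libraries. The log2 fold change for IL-4 and IL-13 was -1.04 ± 0.19 (SE, adjusted p = 0.00017), and -1.20 without that library. Adding TNFa gave -0.29 ± 0.19 (adjusted p = 0.209), not a call. This comparison was called without Control replicate 1, which is in neither group (adjusted p = 0.0198); the spread is estimated over all 18 libraries. It was also called in a fit of the compared libraries alone (adjusted p = 0.0256) and with library-total scaling (-0.49, adjusted p = 0.0329), and not with a replicate block (adjusted p = 0.129).

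Il10rb, the signalling chain, fell with IL-4 and IL-13 and rose above the control level when TNFa was added. It lies on the plus strand of chromosome 16 (chr16:91406164-91425834). The values were 182 to 213 CPM in the controls (median 205), 132 to 151 CPM with IL-4 and IL-13 (median 148) and 235 to 249 CPM with TNFa (median 241). No value was shared between any of the groups. The log2 fold change was -0.48 ± 0.04 for IL-4 and IL-13 (SE, adjusted p = 2.26e-08) and 0.73 ± 0.04 for TNFa (adjusted p = 3.61e-11). The triple treatment stood 0.25 ± 0.04 above the control (adjusted p = 3.48e-05). With library-total scaling, which moved the median of all genes by -0.25 in that comparison, the difference was 0.002 (adjusted p = 0.974).

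The IL-6 receptor chains moved in opposite directions at both steps. Il6ra, the IL-6-binding chain (chr3:89864059-89913196, minus strand), ran from 132 to 272 CPM in the controls (median 254), from 149 to 188 with IL-4 and IL-13 (median 159) and from 101 to 105 with TNFa (median 103). The lowest control value was again replicate 1, the only control within the IL-4 and IL-13 range or below it, and all TNFa libraries lay below every other library. On the log2 scale the difference was -0.51 ± 0.12 for IL-4 and IL-13 (SE, adjusted p = 0.00164) and -0.67 ± 0.12 for TNFa (adjusted p = 0.000113). From control to triple treatment Il6ra fell by 1.18 on the log2 scale, a 2.27-fold drop. An antisense gene, Gm42809, shares 242 exonic bases with Il6ra but had only 16, 17 and 6 counts in the 3 groups in all.

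Il6st, encoding gp130 (chr13:112464070-112510086, plus strand), held 136 to 232 CPM in the controls (median 211), 418 to 616 with IL-4 and IL-13 (median 482.5) and 723 to 839 with TNFa (median 820.5). The 3 groups did not overlap. Its mean rose from 198 ± 34.1 to 508 ± 74.1 and 804 ± 43.4 CPM (SD, n = 6). The log2 fold change was 1.36 ± 0.11 for IL-4 and IL-13 (SE, adjusted p = 6.56e-09) and 0.66 ± 0.11 for TNFa (adjusted p = 3.32e-05), a 4.06-fold rise from control to triple treatment.

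Other chains that join gp130 went separate ways. Il27ra, the IL-27-binding chain, rose from 1.20 ± 0.351 to 23.7 ± 4.32 and 44.2 ± 2.88 CPM, and Il11ra1, the IL-11-binding chain, rose from 18.4 ± 1.71 to 61.2 ± 8.27 and 120 ± 5.93 CPM (SD, n = 6). Lifr, the LIF receptor, fell from 46.0 ± 9.36 to 28.4 ± 4.19 and 2.93 ± 0.590 CPM, with log2 changes of -0.69 and then -3.28 (adjusted p = 0.00033 and 5.0e-12).

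Both type I interferon receptor chains fell with IL-4 and IL-13, and TNFa raised Ifnar1. Ifnar1 (chr16:91485238-91507441, plus strand) held 255 to 324 CPM in the controls (median 293), 161 to 181 with IL-4 and IL-13 (median 175) and 395 to 464 with TNFa (median 434). Every group was separate from the others, with TNFa libraries the highest. In the fit, Ifnar1 changed on the log2 scale by -0.74 ± 0.05 for IL-4 and IL-13 (SE, adjusted p = 9.05e-10) and 1.32 ± 0.05 for TNFa (adjusted p = 1.72e-13), a 2.49-fold rise. Against the control, the triple treatment was higher by 0.58, and by 0.33 with library-total scaling.

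Ifnar2 (chr16:91372783-91405589, plus strand) ran from 129 to 190.5 CPM in the controls (median 182), from 83.4 to 90.3 with IL-4 and IL-13 (median 86.9) and from 90.6 to 101 with TNFa (median 95.5). The control libraries, replicate 1 included, all lay above the treated ones. The fit for IL-4 and IL-13 gave a log2 fold change of -1.005 ± 0.07 (SE, adjusted p = 1.11e-09), a 2.01-fold drop. Adding TNFa gave 0.13 ± 0.07 (adjusted p = 0.135), not a call, although every TNFa library lay above every IL-4 and IL-13 library. That difference was called without Control replicate 1 (adjusted p = 0.00447) and in a fit of the compared libraries alone (adjusted p = 0.0199), and it changed sign with library-total scaling (-0.08).

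The interferon gamma receptor chains parted when TNFa was added. Ifngr1, the ligand-binding chain (chr10:19591949-19610229, plus strand), held 172 to 346 CPM in the controls (median 325), 187 to 268 with IL-4 and IL-13 (median 253) and 107 to 135 with TNFa (median 124). The TNFa libraries lay below all others, and among the first 2 groups the controls other than replicate 1 lay above every IL-4 and IL-13 library. The log2 fold change for TNFa was -0.97 ± 0.13 (SE, adjusted p = 4.33e-06), a 1.96-fold drop. For IL-4 and IL-13 it was -0.31 ± 0.13 (adjusted p = 0.0514), just outside the threshold. This last difference was called in a fit blocked on replicate number (-0.29, adjusted p = 0.0041) and without Control replicate 1 (-0.42, adjusted p = 9.83e-05). It was also called with library totals, DESeq2 size factors, DESeq2, a stricter filter and without the fifth IL-4 and IL-13 replicate (adjusted p = 0.0294 to 0.0499), but not in a fit of the compared libraries alone (adjusted p = 0.115).

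Ifngr2, the chain recruited for signalling (chr16:91547072-91565623, plus strand), held 153 to 213 CPM in the controls (median 207), 162 to 207 with IL-4 and IL-13 (median 184) and 283 to 298 with TNFa (median 294). The first 2 groups overlapped and the TNFa libraries lay above both. TNFa gave a log2 fold change of 0.67 ± 0.07 (SE, adjusted p = 1.3e-07). For IL-4 and IL-13 it was -0.11 ± 0.07 (adjusted p = 0.178), and -0.17 without Control replicate 1 (adjusted p = 0.00245). The triple treatment was higher than the control by 0.55, or by 0.30 with library-total scaling.

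**Figure D2:**
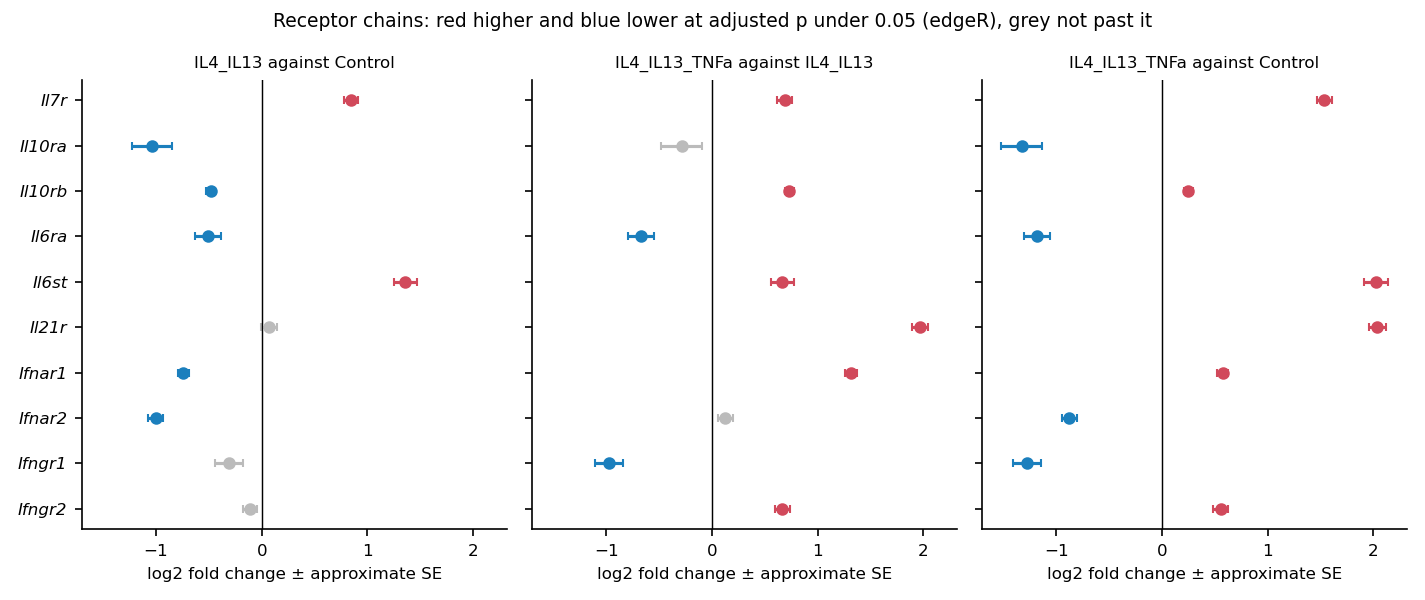
Log2 fold change of each receptor chain with its SE as the error bar, for IL-4 and IL-13 against control, TNFa added to IL-4 and IL-13, and the triple treatment against control, with red points called higher, blue points called lower and grey points not called at adjusted p under 0.05 (edgeR). Il7r and Il6st are above 0 and Il6ra is below 0 in all 3 comparisons, while Il10rb and Ifnar1 lie below 0 for IL-4 and IL-13 and above 0 for TNFa.

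Scaling by library totals in place of the trimmed mean of M-values lowered the median log2 fold change of all genes by 0.21 when TNFa was added and by 0.25 for the triple treatment against control. Of the genes called, 27.5% and 32.7% were then higher in these comparisons, beside 50.9% and 49.4% in the analysis reported here. Relative to that shifted median, Il21r was still higher by 1.97 and Ifngr1 lower by 0.97 on the log2 scale when TNFa was added. For IL-4 and IL-13 the median moved by -0.04.

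Ifnar2, Il10rb, Ifnar1 and Ifngr2 lie next to each other on chromosome 16, all on the plus strand. The gaps between them are 574, 59403 and 39630 bases in that order. The only other protein-coding gene among them in GENCODE M21 is Gm21970, a readthrough of Ifnar2 and Il10rb that shares exonic bases with both and had 0 counts in every library. After IL-4 and IL-13, Ifnar2, Il10rb and Ifnar1 fell by 1.005, 0.48 and 0.74 on the log2 scale and Ifngr2 was not called. With TNFa, Il10rb, Ifnar1 and Ifngr2 rose by 0.73, 1.32 and 0.67 and Ifnar2 was not called. Across the 18 libraries Il10rb and Ifnar1 were alike (Pearson r = 0.977), while Il10rb and its nearest neighbour Ifnar2 gave r = 0.311. Both are descriptions over libraries that share 3 treatments.

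Because chains act in pairs, the ratio of the first-named chain to its partner was taken in each library, from counts per exonic length. The first-named chain is the ligand-specific one, except for Ifnar1 and Ifnar2, which both bind the ligand. There Ifnar1 was put first, so the direction of that ratio cannot be set against the others. Ratios were compared between groups by exact two-sided permutation tests of the log2 ratio, 18 in all (6 pairs, 3 comparisons), with Benjamini-Hochberg adjustment. With 6 libraries against 6 the smallest p is 0.00216, which becomes 0.003 after adjustment. TNFa moved all 6 ratios when added to IL-4 and IL-13, 5 of them at that smallest value. The length counts all annotated exons of a gene, so whether a ratio lies above or below 1 depends on the annotation. Differences of the log2 ratio between groups do not depend on it. RNA ratios are not ratios of protein on the cell surface, which was not measured.

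The Il6ra to Il6st ratio changed most from the control, both with IL-4 and IL-13 and with the triple treatment, while the Ifngr1 to Ifngr2 ratio changed most when TNFa was added. The Il6ra to Il6st median was 1.54 in the controls (range 1.24 to 1.65), 0.421 with IL-4 and IL-13 (0.370 to 0.457) and 0.161 with TNFa (0.156 to 0.187). The groups did not overlap, and the log2 ratio differed by -1.84 and then -1.34 (exact permutation, adjusted p = 0.003 for each). Per exonic length, RNA for the IL-6-binding chain thus exceeded that for gp130 in every control library and was below it in every treated one.

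The Ifngr1 to Ifngr2 ratio was 2.07 in the controls (1.49 to 2.19), 1.75 with IL-4 and IL-13 (1.53 to 1.87) and 0.563 with TNFa (0.500 to 0.611). Per exonic length, Ifngr1 RNA was above Ifngr2 RNA in all 12 libraries without TNFa and below it in all 6 with TNFa (log2 difference -1.63, exact permutation, adjusted p = 0.003). The difference for IL-4 and IL-13 was -0.17 (exact permutation p = 0.102, adjusted p = 0.102), and -0.25 without Control replicate 1 (adjusted p = 0.00688).

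The Il10ra to Il10rb ratio had a median of 1.89 in the controls, with replicate 1 at 0.801 and the highest at 2.13. It was 1.25 with IL-4 and IL-13 (0.778 to 1.40) and 0.589 with TNFa (0.537 to 0.663). TNFa libraries lay below all others (log2 difference -1.002 from IL-4 and IL-13, exact permutation, adjusted p = 0.003). The difference for IL-4 and IL-13 was -0.49 (exact permutation p = 0.0909, adjusted p = 0.0963). It passed the threshold without Control replicate 1 (-0.70, exact permutation, adjusted p = 0.0026) and when the replicate numbers were used as blocks (exact sign-flip test, adjusted p = 0.0352).

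With Ifnar1 put first, the Ifnar1 to Ifnar2 ratio had a median of 0.903 in the controls (0.876 to 1.11). It rose to 1.12 with IL-4 and IL-13 (1.07 to 1.19) and 2.60 with TNFa (2.29 to 2.64). The log2 differences were 0.26 (exact permutation, adjusted p = 0.00974) and 1.19 (adjusted p = 0.003). Control replicate 1 held the highest control ratio and was the only control inside the IL-4 and IL-13 range.

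For the common gamma chain receptors, the Il7r to Il2rg ratio was 1.66 in the controls (1.37 to 1.76), 2.10 with IL-4 and IL-13 (1.83 to 2.34) and 0.743 with TNFa (0.637 to 0.929), with no overlap between groups (log2 differences 0.38 and -1.47, exact permutation, adjusted p = 0.003 for each). The Il21r to Il2rg ratio was 2.15 (1.61 to 2.32), 1.59 (1.5 to 1.75) and 1.42 (1.29 to 1.54). Its log2 differences were -0.38 and -0.19 (exact permutation, adjusted p = 0.00974 for each). The first of these was not called when replicate numbers were used as blocks (exact sign-flip test, adjusted p = 0.0625). With 6 pairs the smallest adjusted p of that sign-flip test was 0.0352, so it could hardly pass the threshold. By these exonic lengths, Il21r RNA exceeded Il2rg RNA in every library, while Il7r RNA was below it in all 6 libraries with TNFa.

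**Figure D3:**
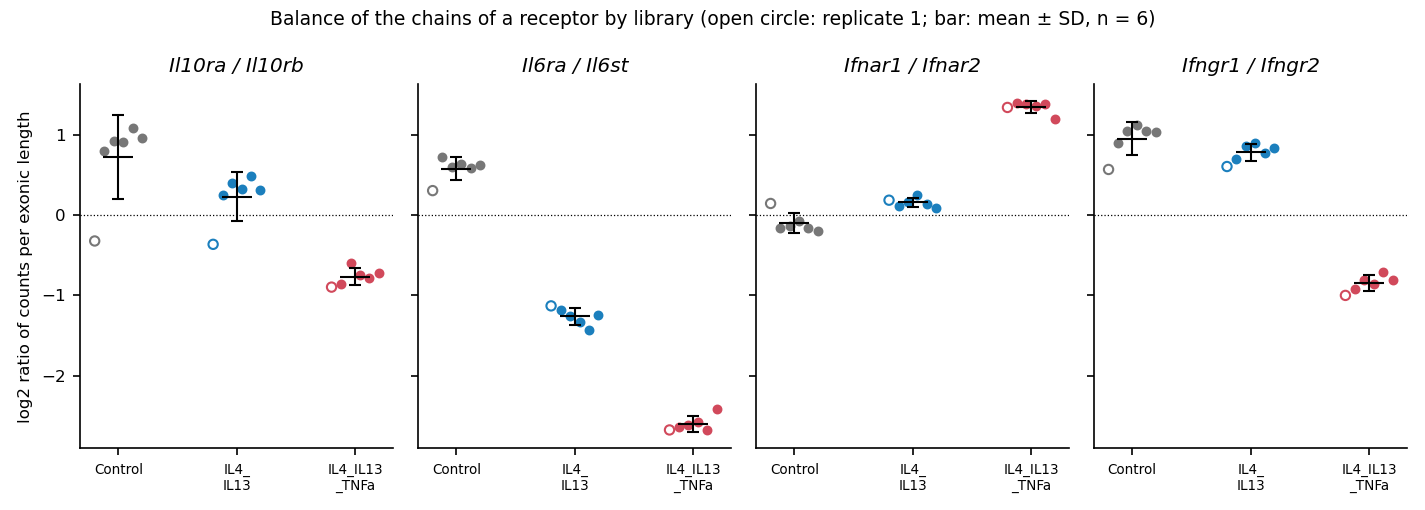
Ratio of the first-named chain to its partner on a log2 axis, from counts per exonic length, with 1 point per library (open for replicate 1) and the mean ± SD of 6 libraries as a bar, for the 4 receptors whose chains are both described. The Ifngr1 to Ifngr2 and Il10ra to Il10rb medians pass from above 1 to below 1 when TNFa is added, and the Ifnar1 to Ifnar2 median rises to 2.60.

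Levels of different genes can be compared only per length, here as CPM per kilobase of exon. All annotated exons of a gene are counted, so the order depends on the annotation. In the controls Ifngr1 (104.5) and Il10ra (93.6) had the highest means, followed by Il10rb (53.3), Ifngr2 (52.7), Ifnar2 (52.5) and Ifnar1 (48.8), and each of these 6 overlapped its neighbour in the order. Il10ra overlapped Il10rb only through Control replicate 1 (38.4). In the other controls Il10ra was at 91.8 or more, above the highest Il10rb value (55.9). These 6 were separated by a gap from Il6ra (27.1), Il21r (25.7), Il7r (19.5) and Il6st (17.8), which overlapped in turn. Il21r overlapped Il7r only through Control replicate 1 (18.3). In the other controls Il21r was at 25.8 or more, above the highest Il7r value (21.3). The interferon and IL-10 receptor chains thus led in macrophages kept in rhM-CSF alone.

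With IL-4 and IL-13, Ifngr1 (84.5 CPM per kilobase) stood alone at the top. A middle set of Ifngr2 (48.8), Il6st (45.7), Il10ra (45.6), Il10rb (38.1) and Il7r (35.1) overlapped in turn, then came Ifnar1 (29.2), Il21r (26.9) and Ifnar2 (26.1), and Il6ra (19.0) was below all. With TNFa added, Il21r (105.4) stood alone at the top, and Ifngr2 (77.4), Ifnar1 (72.8), Il6st (72.5), Il10rb (63.4) and Il7r (56.6) followed, each overlapping the next. Ifngr1 (43.1) and Il10ra (37.3), the first 2 in the controls, were below these without overlap, then Ifnar2 (28.6), and Il6ra (11.9) was again the lowest.

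**Figure D4:**
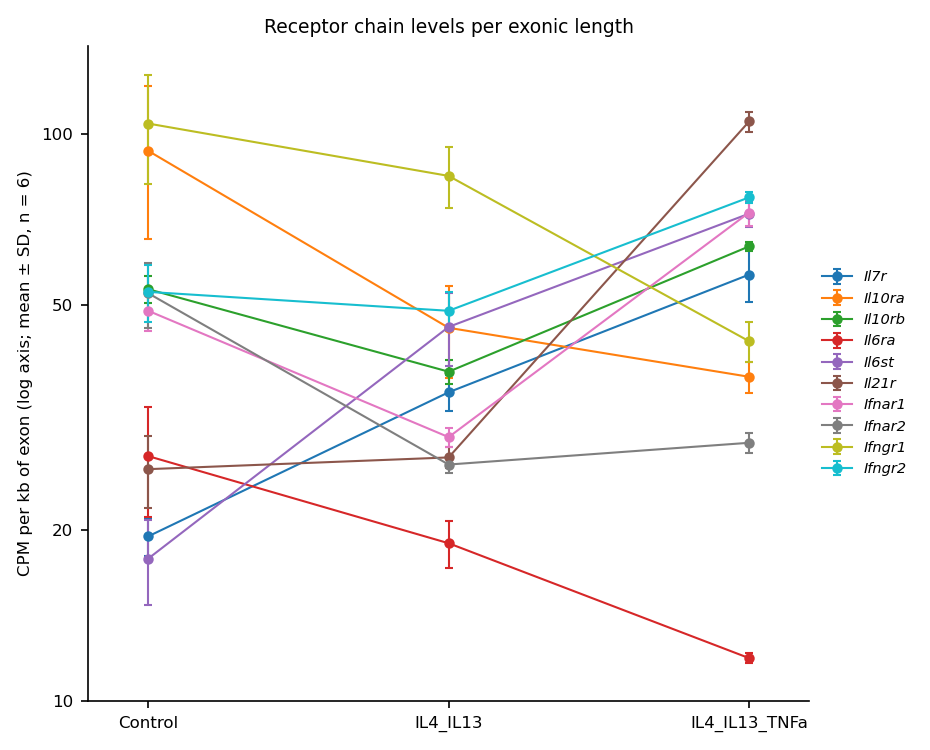
Mean level of the 10 receptor chains in CPM per kilobase of exon on a log axis in each group, with the SD over 6 libraries as the bar and a line joining the means of a gene. Ifngr1 goes from 104.5 in the controls to 43.1 with TNFa and Il21r from 25.7 to 105.4.

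Most ligands of these receptors had little RNA in these libraries. Of 22 ligand genes, 15 were below the filter, with at most 45 counts over the 6 libraries of a group, and 6 had 0 counts in every library, Il21 and Il22 among them. A count of 0 over a group allows up to 3 counts, which is 0.0271, 0.0285 and 0.0333 CPM in the 3 groups, for counting error only. Ifng had 0, 1 and 0 counts and Ifnb1 had 2, 0 and 0. Of the 7 ligands tested, 2 were called higher and 2 lower after IL-4 and IL-13, and 1 higher and 3 lower with TNFa (median log2 fold change -0.31 and -0.16). For this list and those that follow, the shares over all genes are 29.3% higher and 29.7% lower after IL-4 and IL-13. With TNFa added they are 30.3% higher and 29.3% lower.

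Il10 RNA had 228 counts in the controls, 64 with IL-4 and IL-13 and 1 with TNFa. The control level was 3.38 times the IL-4 and IL-13 level (95% counting interval 2.55 to 4.53), and the IL-4 and IL-13 level was 54.8 times the TNFa level (9.48 to 2196). Both falls were called by edgeR (adjusted p = 3.5e-05 and 1.8e-06). Il7, the ligand of Il7r, was called higher at each step, at 0.847 ± 0.246, 2.12 ± 0.393 and 3.17 ± 0.588 CPM (SD, n = 6). Il6 had 26, 14 and 23 counts in the 3 groups and was not tested. Ebi3, a subunit of IL-27, fell at each step, from 34.7 ± 3.98 to 19.1 ± 2.00 and 12.4 ± 1.11 CPM.

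Of 13 partner chains listed, 8 were tested, 5 were called higher and 1 lower at each step (median log2 fold change 0.47 and 0.71). Besides Il2rg, Crlf2, Il27ra, Il11ra1 and Lifr, given above, the called one was Il20rb, which rose from 1.77 ± 0.276 to 4.17 ± 0.742 and 19.4 ± 1.91 CPM. Il20rb is a chain of the receptors for IL-20 and related cytokines.

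In a list of 12 genes, Janus kinases and STAT factors together with Irf9, 2 were called higher and 7 lower after IL-4 and IL-13. When TNFa was added, 5 were called higher and 0 lower by edgeR (median log2 fold change -0.32 and 0.10 in that order). Irf9 is among the 7 and among the 5. The count lower with TNFa was also 0 at an unadjusted p under 0.05 and by DESeq2. Jak2, the kinase carried by Ifngr2, rose from 51.0 ± 1.59 to 108 ± 4.01 and 407 ± 22.1 CPM (SD, n = 6), log2 rises of 1.08 and 1.91 (adjusted p = 1.7e-13 and 6.9e-17). Stat5a, which acts downstream of IL-7 together with Stat5b, rose from 36.6 ± 1.08 to 60.9 ± 6.58 and 232 ± 9.95 CPM. Stat5b was at 85.4 ± 8.55, 80.8 ± 5.79 and 82.2 ± 4.21 CPM and was not called in any comparison.

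Jak1, carried by Ifnar2, Ifngr1, Il10ra, Il7r and gp130, and Tyk2, carried by Ifnar1 and Il10rb, were not called in either comparison. Jak3, which is bound by the common gamma chain, fell by 0.53 with IL-4 and IL-13 (adjusted p = 2.4e-05) and was not called with TNFa. Stat2 and Irf9, which carry the type I interferon signal, fell by 0.94 and 1.09 with IL-4 and IL-13 and rose by 0.42 and 0.43 with TNFa. Stat3, the factor downstream of IL-6 and IL-10, fell by 0.44 with IL-4 and IL-13 and was not called with TNFa.

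**Figure D5:**
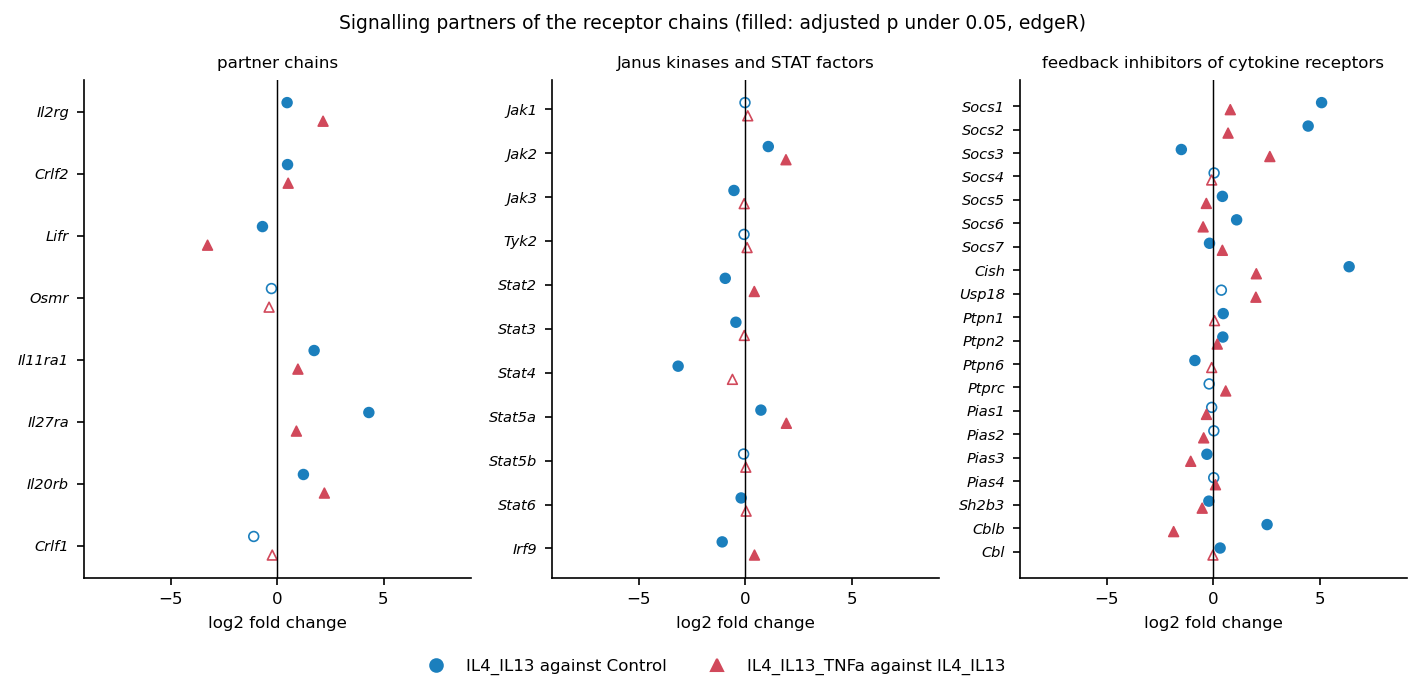
Log2 fold change of Janus kinase and STAT genes with Irf9, and of feedback and partner chain genes (filled where adjusted p is under 0.05, edgeR), for IL-4 and IL-13 against control and for TNFa added to IL-4 and IL-13. Cish and Socs1 have the largest values for IL-4 and IL-13 (6.38 and 5.09), and Socs3 is below 0 for IL-4 and IL-13 and above 0 for TNFa.

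Of 20 feedback inhibitors, 9 were called higher and 5 lower after IL-4 and IL-13 and 9 higher and 7 lower with TNFa (median log2 fold change 0.18 and 0.02). Socs1, which inhibits JAKs downstream of interferon gamma and IL-4, rose from 1.42 ± 0.275 to 48.5 ± 6.11 and 84.2 ± 8.70 CPM (SD, n = 6), and Cish, an inhibitor of STAT5 signalling, from 0.378 ± 0.149 to 31.6 ± 4.77 and 128 ± 9.0 CPM. Socs3, which binds gp130 and restrains IL-6 signalling, fell from 8.56 ± 1.09 to 2.98 ± 0.899 CPM and then rose to 19.0 ± 2.97 CPM. Usp18, which binds Ifnar2 and restrains type I interferon signalling, was not called for IL-4 and IL-13 (0.38, adjusted p = 0.087) and rose by 2.00 with TNFa (adjusted p = 2.4e-08).

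Of 9 genes for receptor shedding and trafficking, 1 was called higher and 2 lower after IL-4 and IL-13, and 2 higher and 3 lower with TNFa (median log2 fold change -0.03 and 0.002). Adam17, a protease that sheds Il6ra, fell from 428 ± 23.6 to 349 ± 22.9 CPM and rose to 636 ± 31.9 CPM with TNFa, and Rhbdf2, which carries Adam17 to the surface, rose from 85.5 ± 11.2 to 254 ± 7.47 CPM with TNFa. Rhbdf1, also on this list, went the other way, at 6.06 ± 1.76, 3.66 ± 0.618 and 1.70 ± 0.411 CPM in the 3 groups. Adam10, a protease that also sheds Il6ra, rose from 402 ± 74.4 to 579 ± 71.1 CPM and fell to 393 ± 45.3 CPM. Furin, which cleaves the proforms of these proteases, fell from 275 ± 27.4 to 115 ± 8.56 CPM with TNFa.

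Of 13 interferon gamma response genes tested, 2 were called higher and 7 lower after IL-4 and IL-13, and 10 higher and 0 lower by edgeR with TNFa (median log2 fold change -0.51 and 0.77), and 0 lower also at an unadjusted p under 0.05 and by DESeq2. Gbp2, a guanylate-binding protein, rose from 10.8 ± 4.75 to 678 ± 38.3 CPM with TNFa, while Ifng itself was at 0 counts there. Of 14 genes known to respond to IL-10 or IL-6, 5 were called higher and 6 lower after IL-4 and IL-13, and 9 higher and 5 lower with TNFa (median log2 fold change -0.24 and 0.83). Il1rn, the IL-1 receptor antagonist, rose from 7.21 ± 1.45 to 70.8 ± 14.8 CPM with TNFa, and Nfil3, a transcription factor, rose from 12.4 ± 2.47 to 89.1 ± 16.1 CPM with IL-4 and IL-13 and fell to 56.9 ± 1.98 CPM with TNFa. Socs1 and Socs3 are on the feedback list and also on the interferon gamma and IL-6 response lists.

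The stretches before the RefSeq starts of 3 chains that rose with TNFa are printed: Ifngr2 has matches to a STAT6 and an NF-kB motif close together, Il21r had the largest rise and no match to any motif searched, and Il7r has matches to a GAS and an ETS motif. Each is the 250 bases before the RefSeq start in GRCm38.p6, 5′ to 3′ on the strand of the gene, at chr16:91546809-91547058 (plus), chr7:125603179-125603428 (plus) and chr15:9529877-9530126 (minus). The GENCODE gene of Il7r begins 300 bases further upstream, at the start of a noncoding transcript, so the Il7r stretch lies inside the gene as given above and partly in an exon of that transcript. Capitals mark the motif matches.
Ifngr2: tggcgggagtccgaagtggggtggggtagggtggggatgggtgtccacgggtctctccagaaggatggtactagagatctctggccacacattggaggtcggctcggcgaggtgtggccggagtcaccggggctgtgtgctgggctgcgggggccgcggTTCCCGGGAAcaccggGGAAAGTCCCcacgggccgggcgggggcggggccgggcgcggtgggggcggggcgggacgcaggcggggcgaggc
Il21r: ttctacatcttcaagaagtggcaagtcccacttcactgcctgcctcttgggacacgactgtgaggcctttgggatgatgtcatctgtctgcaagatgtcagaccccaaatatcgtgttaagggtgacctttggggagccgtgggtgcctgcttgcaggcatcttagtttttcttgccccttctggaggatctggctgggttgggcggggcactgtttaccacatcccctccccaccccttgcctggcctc
Il7r: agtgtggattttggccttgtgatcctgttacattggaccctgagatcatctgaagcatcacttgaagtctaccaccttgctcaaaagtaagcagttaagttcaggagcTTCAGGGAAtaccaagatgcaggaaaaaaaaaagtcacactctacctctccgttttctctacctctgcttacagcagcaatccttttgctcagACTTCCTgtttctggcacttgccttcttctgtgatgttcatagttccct

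Promoters of 8 of the 10 chains were in the RefSeq table, which holds 250 bases before and 50 after each start, and Il10ra and Il10rb were not among them. Both strands of all 32851 promoters were searched. The GAS motif TTCNNNGAA, bound by several STAT factors, was in 8.30% of promoters and in those of Il7r (bases 142 to 134 before the start), Ifnar2 (214 to 206) and Ifnar1 (across the start). The motif with the same TTC and GAA arms but 1 more base between them, which STAT6 prefers, was in 6.95% of promoters and in that of Ifngr2 (bases 91 to 82). The NF-kB consensus was in 4.51% of promoters and in that of Ifngr2 (bases 75 to 66, minus strand). The ETS motif AGGAAGT was in 9.35% of promoters and in those of Il6ra (174 to 168) and Il7r (49 to 43). The AP-1 motif TGANTCA (7.81% of promoters) and the ISRE core, a pair of GAAA runs with 2 bases between them (3.44%), were in none of the 8. The window of Il21r held none of the 6 motifs. A match is a description of letters and not a bound site.

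For each chain the gene most like it was found as the highest Pearson r of log2 CPM over the 18 libraries, among 10337 genes, and these r values reflect the 3 treatments the libraries share. Il7r was most like Cd274 (r = 0.990), the gene for PD-L1, at 7.93, 43.6 and 209 CPM in the 3 groups. Il6st was most like Traf5 (r = 0.994), a TNF receptor adaptor, at 13.4, 45.1 and 79.3 CPM. Il21r was most like Arrdc4 (r = 0.995), with the pyroptosis effector Gsdmd the third (r = 0.994) at 102, 101 and 347 CPM.

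Among the interferon receptor chains, Ifnar1 was most like the lysosomal phosphatase Acp2 (r = 0.993), Ifnar2 most like Ugt1a7c (r = 0.989), Ifngr1 most like the lysosomal enzyme Fuca1 (r = 0.990), and Ifngr2 most like Ric8a (r = 0.993). Lyz2, the macrophage lysozyme, was the third for Ifnar2 (r = 0.982), and the lysosomal mannosidase Man2b1 the second for Ifngr1 (r = 0.990). Il10ra was most like Tmem150b (r = 0.988), Il10rb most like Arl8a (r = 0.980), and Il6ra most like the transcription factor Tef (r = 0.992). Among the chains themselves Il7r went with Il6st (r = 0.970), Il6ra with Ifngr1 (r = 0.962) and Il21r with Ifngr2 (r = 0.948), and Il7r went against Il6ra (r = -0.866).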

How the data were processed

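Poly(A) RNA from 18 libraries was prepared with a strand-marking kit, per the labels' protocols. The deposited values are raw counts per gene. Per the submitters' processing notes the tools were FastQC 0.11.5, RSEM 1.3.0, featureCounts 1.5.1, STAR (2.5.2b and 2.5.2) and bcl2fastq 2.20.0.422, with build GRCm38/mm10. Which tool made the counts, from which annotation and with which strand setting, is not given in the sources used here. Gene names came from GENCODE M21 (48434 of 48794 identifiers).

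Counts were analysed in R 4.3.3 with edgeR 4.0.16 (filterByExpr, minimum count 10; TMM scaling; robust quasi-likelihood fit of all 18 libraries; 3 contrasts; Benjamini-Hochberg adjustment). SE is the log2 fold change divided by the root of F, and CPM uses TMM-scaled totals. The scripts were tested on simulated data with 200 changed genes. Chain ratios used exact permutation tests over 924 arrangements. No 2 libraries of a group agreed within sampling noise (lowest chi-square per degree of freedom 2.59 over 45 pairs). Libraries with the same replicate number deviated together (correlation 0.128 to 0.671 over 18 pairs, 16 of them mutual best matches), so pairing by number rests on these correlations and on no label. Alternatives were other scalings and filters, DESeq2 1.42.0, a replicate block, the compared libraries alone and each library left out. Leaving out all libraries numbered 1 was added after seeing the data.

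The 10 chains, the gene lists and the rule for named genes were chosen with earlier results of these data known. Under that rule values are given for all chains, for listed partners, kinases, factors, feedback genes, sheddases and ligands named by role, for up to 3 genes per list and comparison with the largest called change at 1 CPM or more, and for the 3 genes most correlated with a chain among those at 5 CPM or more in a group. Intervals and the limit of 3 counts cover counting error only. 1 listed signalling gene is not reported here by name.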

Additional observations from a re-analysis of the deposited data

Results flagged for a closer look

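Of 48 sets of 6 libraries (each chain's CPM and each chain ratio in each group), 12 held 1 library far from the other 5, where the gap to its nearest neighbour, over the whole range, exceeded Dixon's critical value. Chance gives such a gap in about 1 in 20 sets. Control replicate 1 gave 10 of the 12. It held the lowest control CPM of Il10ra (134), Il6ra (132), Il21r (60.8), Ifnar2 (129), Ifngr1 (172) and Ifngr2 (153). It also held the lowest control log2 ratio of Il10ra to Il10rb (-0.32), of Il6ra to Il6st (0.31) and of Il21r to Il2rg (0.69), and the highest of Ifnar1 to Ifnar2 (0.15). In the IL-4 and IL-13 group, replicate 1 was the lowest for the log2 ratio of Il10ra to Il10rb (-0.36). With TNFa added, replicate 6 was the lowest for the log2 ratio of Ifnar1 to Ifnar2 (1.20).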

How the results depend on the processing

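Of 840 alternative log2 fold changes of the 10 chains, 814 kept their direction and their side of the threshold, as did 264 of 270 alternative ratio differences. Il21r for IL-4 and IL-13 changed sign without Control replicate 1 (-0.0087) and without the libraries numbered 1, with no replicate block (-0.0061) and with one (-0.0062), none of them called, and ranged from -0.0087 to 0.10 as each library was left out. Ifnar2 for TNFa changed sign with library totals (-0.0784). The log2 ratio of Il10ra to Il10rb for IL-4 and IL-13 was called with the replicate block (-0.49) and without the libraries numbered 1 (-0.59), and ranged from -0.70 to -0.38 as each library was left out. The ratio of Ifngr1 to Ifngr2 for IL-4 and IL-13 was called without the libraries numbered 1 (-0.22), and ranged from -0.25 to -0.14. The ratio of Il21r to Il2rg for IL-4 and IL-13 lost its call with the replicate block (-0.38), by a sign-flip test that could hardly pass the threshold. The cause of each was not tested. Besides these ratios and Ifngr1 for IL-4 and IL-13, the block changed no call of a chain or ratio. Counts of called chains and genes stayed within 1.5 times under every alternative run. Depth limits what can be said of Il10 with TNFa and of the ligands that were not tested.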

Other observations

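Of 21 other cytokine receptor chains, 10 were tested, and 3 were called higher and 3 lower after IL-4 and IL-13. With TNFa, 8 were called higher and 0 lower by edgeR (median log2 fold change -0.05 and 0.77 in that order). Over all genes, 29.3% were called higher and 29.7% lower after IL-4 and IL-13, and 30.3% and 29.3% with TNFa. The count lower with TNFa was 0 also at an unadjusted p under 0.05 and by DESeq2. Csf2rb, the shared beta chain of the GM-CSF, IL-3 and IL-5 receptors, rose from 408 ± 60.9 to 956 ± 82.4 and 2999 ± 166 CPM (SD, n = 6). Csf2rb2, a near-identical copy of it, was also called higher at each step, and how reads shared by the pair were counted is not given in the sources used here. Il13ra1, an IL-13-binding chain, fell from 12.8 ± 1.89 to 3.91 ± 0.761 CPM and rose to 39.3 ± 2.98 CPM with TNFa. Il4ra, the IL-4-binding chain, fell from 128 ± 12.5 to 57.3 ± 5.32 CPM and rose to 95.8 ± 2.44 CPM.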
